A study of Mus musculus with 8 samples.

Results

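Lysosomal proteases, glycosidases, membrane proteins and their regulators were followed as 29 named genes across 8 RNA sequencing libraries of mouse pancreatic ductal adenocarcinoma cells. The genes were chosen by name, from knowledge of the lysosome, and not by a rule on their values here. Earlier results of these data were known when they were chosen. They comprise 8 proteases, 10 glycosidases, 5 membrane proteins, 4 genes for lipid hydrolysis or soluble cofactors and 2 transcription factors. All 29 were found among the 49315 gene identifiers of the deposited table. All 29 also passed the filter on low values, as did 12900 genes in all, so none was lost to the filter.

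The 4 cell lines were 6694c2, 2838c3, 6499c4 and 6419c5, and every line contributed 1 wild-type (WT) library and 1 C1galt1c1-knockout (KO) library, which gives 4 libraries per genotype. C1galt1c1 encodes Cosmc, the chaperone of the enzyme that extends O-glycans from their first sugar, and the KO cells are described as carrying the truncated Tn antigen. All cultures were kept in high-glucose DMEM with fetal bovine serum and antibiotics, and no further allele or agent is named for either genotype. How the knockout was made, and whether a KO line is 1 clone, was not given in the sources used here. With 1 library per genotype and line, values inside a line stand without a replicate.

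Lysosomes are acidic organelles that break down proteins, glycans and lipids delivered by endocytosis and autophagy. Their soluble enzymes are made in the endoplasmic reticulum, tagged with mannose 6-phosphate in the Golgi and sorted to the organelle, while heavily glycosylated membrane proteins such as Lamp1 line its inner surface. The transcription factors Tfeb and Tfe3 raise the expression of many of these genes when mTORC1 activity falls, and this programme is known to be active in pancreatic cancer, where lysosomes recycle nutrients.

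C1galt1c1 was lower in the KO library of every line, with 37.0 against 10.9 TPM in 6694c2, 40.4 against 15.3 TPM in 2838c3, 54.2 against 19.0 TPM in 6499c4 and 37.9 against 16.05 TPM in 6419c5. Its log2 difference was -1.27 with an SE of 0.14, which had an unadjusted limma p of 5.5e-05 and did not pass after adjustment over 12900 genes (adjusted p = 0.427). TPM are length-scaled shares of a library that add up to 1000000, so levels can be compared between genes and the sequencing depth behind them is unknown. Identifiers without a gene name held 12.5% and 9.69% of the TPM in the KO libraries of 6694c2 and 6419c5, against 0.713% to 1.33% in the other 6 libraries. Such RNA lowers the share left to all other genes. Each library was therefore divided by a median-ratio size factor (0.858 to 1.14) before any difference was taken, while levels are given as deposited. Of 8 ductal epithelial markers, all 8 passed the filter, and their summed level was 13780 to 20030 TPM in WT and 13360 to 24160 TPM in KO libraries, most of it keratins such as Krt8, at up to 8257 TPM. Epcam was low in 6694c2 (3.12 and 1.21 TPM, WT then KO) and in the WT library of 2838c3 (1.35 TPM), and Cldn4 was under 1 TPM in both libraries of 6694c2 and in the WT library of 2838c3. Of 12 macrophage and leukocyte markers, 10 stayed under 1 TPM in every library, Ptprc, Csf1r, Adgre1 and Lyz2 among them, although Cd14 reached 418 TPM and Mrc1 26.4 TPM. The summed level of the 12 was 303 to 404 TPM in WT and 257 to 431 TPM in KO libraries. The summed level of 8 fibroblast markers was at most 8.70 TPM and that of 5 endothelial markers at most 4.34 TPM. Of 8 acinar and islet markers, Cpa1, Amy2b, Ins1, Ins2 and Gcg were listed at 0 in all libraries, and Cela1 reached 44.4 TPM.

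The promoters of the lysosomal genes are shown first, because Tfeb and Tfe3 bind a short palindrome, the E-box CACGTG, in the promoters of lysosomal genes. The motif was looked for in the 250 bases before each RefSeq start (build GRCm38.p6), and as a palindrome it reads the same on both strands. Such windows were at hand for 25 of the 29 genes, and Asah1, Npc1, Ctsh and Ctsb had none. CACGTG stood in the window of 10 of these 25 genes (40.0%), against 10.0% of 9298 genes tested that had a window and 6.86% of all 27025 genes in the promoter table. The longer form GTCACGTG or CACGTGAC, which contains the E-box, stood in 8 of 25 (32.0%), against 4.05% of the genes tested. The 10 genes were Ctsd, Ctsl, Lamp1, Ctsa, Gaa, Lgmn, Glb1, Naglu, Mcoln1 and Gla. A match describes the letters of the window and not a bound site, and no window of Tfeb, Tfe3, Psap, Neu1 or Hexa held it. Runs around the motif nearest the start follow for the 6 genes with the longer form that had the highest mean level. Each is written 5′ to 3′ on the strand of the gene, with CACGTG in capitals.
Ctsd, chr7:142387908-142387937, minus strand: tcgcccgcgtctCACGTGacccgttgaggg
Lamp1, chr8:13159128-13159156, plus strand: actggCACGTGaccacatCACGTGcggaa
Ctsa, chr2:164833749-164833772, plus strand: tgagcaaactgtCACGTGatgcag
Lgmn, chr12:102439124-102439153, minus strand: tggaatgtctgtCACGTGgtccattttata
Glb1, chr9:114401018-114401047, plus strand: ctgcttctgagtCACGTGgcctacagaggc
Naglu, chr11:101070009-101070038, plus strand: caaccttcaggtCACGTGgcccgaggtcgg

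Lamp1 had the most copies of the motif, 4, of which the run above shows 2. Between its outermost copy and its start lay 55 bases. Ctsd had 2 copies, and the other 4 genes printed here had 1 copy each. Ctsa and Lgmn have 2 starts each in the table, and the motif stood before 1 of them.

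The lysosomal genes were well expressed in all 4 lines. Together they held between 3346 TPM, in the KO library of 6694c2, and 6715 TPM, in the WT library of 6419c5. In the order WT then KO, their sums were 4753 and 3346 TPM in 6694c2, 4790 and 5184 TPM in 2838c3, 5878 and 5365 TPM in 6499c4, and 6715 and 5323 TPM in 6419c5. The 6 highest genes of each library made up 59.5% to 64.9% of its sum. Of the 29 genes, 28 had at least 10 TPM in every library, and Tfeb was the exception.

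**Figure D1:**
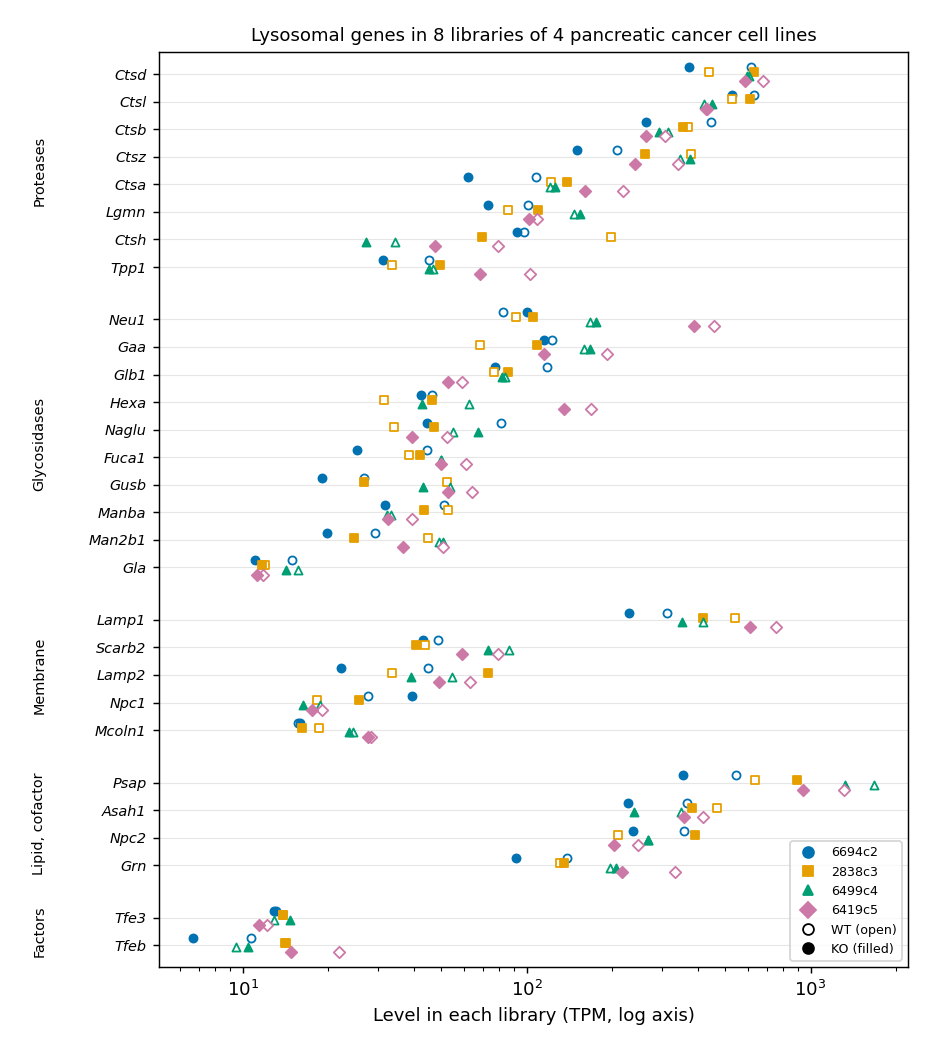
Level of each of the 29 lysosomal genes in the 8 libraries (TPM, log axis), grouped by role and sorted by mean level. Colour and shape mark the cell line, open symbols WT and filled symbols KO; Psap, with a mean of 962 TPM, stands highest and Tfeb, with a mean of 12.8 TPM, lowest.

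Psap, which encodes the precursor of the saposins, small proteins that present sphingolipids to their hydrolases, had the highest mean and ranked 148 among all genes tested. Its levels, WT then KO, were 545 and 357 TPM in 6694c2, 638 and 898 TPM in 2838c3, 1672 and 1328 TPM in 6499c4, and 1317 and 942 TPM in 6419c5. The 4 libraries of 6499c4 and 6419c5 were all above the 4 of 6694c2 and 2838c3. The aspartic protease Ctsd, cathepsin D, followed at a mean of 566 TPM, with 615 and 373 TPM in 6694c2, 439 and 631 TPM in 2838c3, 606 and 597 TPM in 6499c4, and 678 and 586 TPM in 6419c5. The cysteine protease Ctsl, cathepsin L, had 631 and 530 TPM in 6694c2, 530 and 613 TPM in 2838c3, 420 and 451 TPM in 6499c4, and 432 and 429 TPM in 6419c5. Ctsd thus differed little between lines, by 0.23 from the highest to the lowest line on the log2 scale. Ctsl differed by 0.63, and the 4 libraries of 6694c2 and 2838c3 were all above the 4 of 6499c4 and 6419c5. Neither gene passed the test between lines described next (limma adjusted p of 0.815 and 0.127).

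Differences between the lines were tested with a limma F-test on the line terms, with genotype in the model and p-values adjusted by Benjamini-Hochberg over 12900 genes at a threshold of 0.05. Of the 29 lysosomal genes 6 passed, where 17.0% of all genes tested did. They were the glycosidases Neu1 and Hexa, the membrane proteins Lamp1 and Scarb2, the cofactor Psap and the protease Ctsh. The distance between the highest and the lowest line ranged from 0.23 (Ctsd) to 2.03 (Neu1) on the log2 scale over the 29 genes, with a median of 0.93. This scale is log2 of the scaled TPM plus a pseudocount of 1.

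Neu1, the sialidase that removes terminal sialic acid and works in a complex with Ctsa and Glb1, differed most. Its levels, WT then KO, were 82.8 and 99.9 TPM in 6694c2, 91.8 and 105 TPM in 2838c3, 168 and 176 TPM in 6499c4, and 459 and 389 TPM in 6419c5. Both libraries of 6419c5 were above the 6 others, and line 6419c5 stood 1.73 above the mean of the other lines on the log2 scale (limma, adjusted p = 0.00188). Lines 6694c2 and 2838c3 stood 0.93 and 0.97 below the mean of the rest (limma adjusted p of 0.0200 and 0.0217). The adjusted p of the F-test was 0.0030. It ranged from 0.00164 to 0.113 over 13 alternatives and did not pass without line 6419c5 or without 6694c2 and 6419c5. Neu1 made up 39.6% and 42.5% of the summed glycosidase TPM in the WT and KO libraries of 6419c5, against 13.4% to 24.3% in the other libraries. Of its partners, Glb1 was lowest in 6419c5, 0.74 below the mean of the rest (limma, adjusted p = 0.0415), but its F-test did not pass (limma, adjusted p = 0.0736). Ctsa had 62.2 to 139 TPM in the other lines and 218 and 161 TPM in 6419c5, so that both libraries of 6419c5 were above the others as for Neu1, but the contrast did not pass (0.64 higher; limma, adjusted p = 0.0948).

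Hexa, the alpha subunit of beta-hexosaminidase, which degrades GM2 ganglioside, had the same order at its top. Its levels were 46.4 and 42.5 TPM in 6694c2, 31.5 and 46.2 TPM in 2838c3, 62.6 and 42.7 TPM in 6499c4, and 168 and 135 TPM in 6419c5. Line 6419c5 stood 1.61 above the mean of the others (limma, adjusted p = 0.00711), and the adjusted p of the F-test was 0.0155.

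Lamp1, the most abundant glycoprotein of the lysosomal membrane, had 313 and 230 TPM in 6694c2, 542 and 419 TPM in 2838c3, 418 and 351 TPM in 6499c4, and 755 and 612 TPM in 6419c5. It was highest in 6419c5 (0.76 above the rest, limma, adjusted p = 0.0221) and lowest in 6694c2 (0.75 below the rest, limma, adjusted p = 0.0257). Scarb2, which carries beta-glucocerebrosidase to the lysosome, had 48.6 and 43.1 TPM in 6694c2, 43.9 and 40.6 TPM in 2838c3, 86.8 and 72.8 TPM in 6499c4, and 79.2 and 59.3 TPM in 6419c5. All libraries of 6499c4 and 6419c5 lay above those of 6694c2 and 2838c3, yet no line passed on its own against the rest (limma, smallest adjusted p = 0.0509, for 6499c4), and the F-test was near its threshold at an adjusted p of 0.0449. Psap was highest in 6499c4 (1.07 above the rest, limma, adjusted p = 0.0418) and lowest in 6694c2 (1.14 below the rest, limma, adjusted p = 0.0291).

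Ctsh, cathepsin H, a cysteine protease with aminopeptidase activity, ran in another order. It had 98.1 and 92.7 TPM in 6694c2, 198 and 69.5 TPM in 2838c3, 34.4 and 27.2 TPM in 6499c4, and 79.5 and 47.4 TPM in 6419c5. Line 6499c4 was lowest, 1.48 below the mean of the rest (limma, adjusted p = 0.0289), while the 2 libraries of 2838c3 lay far apart. Gusb, the beta-glucuronidase that degrades glucuronide-bearing glycosaminoglycans, was lower in 6694c2 than in the rest by that contrast (0.89 lower, limma, adjusted p = 0.0339) with an F-test just above the threshold (0.0505). Npc1 was higher in 6694c2 by the same contrast (0.91 higher, limma, adjusted p = 0.0446), but its F-test did not pass (limma, adjusted p = 0.0826). Of the 29 genes 11 were highest in 6419c5, 8 in 6499c4, 7 in 6694c2 and 3 in 2838c3, where 24.7%, 24.2%, 27.3% and 23.8% of all genes were. The lowest line was 6694c2 for 11, 2838c3 for 8, 6419c5 for 7 and 6499c4 for 3, against 25.8%, 20.2%, 29.6% and 24.4% of all genes. The contrasts of each line against the rest placed 3 of the 29 above and 1 below in 6419c5 (6.96% and 4.40% of all genes), 1 above and 4 below in 6694c2 (4.78% and 5.19%), 0 above and 1 below in 2838c3 (2.50% and 4.18%), and 1 above and 1 below in 6499c4 (3.71% and 3.79%). Tfe3 and Tfeb did not pass between lines (limma adjusted p of 0.502 and 0.132).

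**Figure D2:**
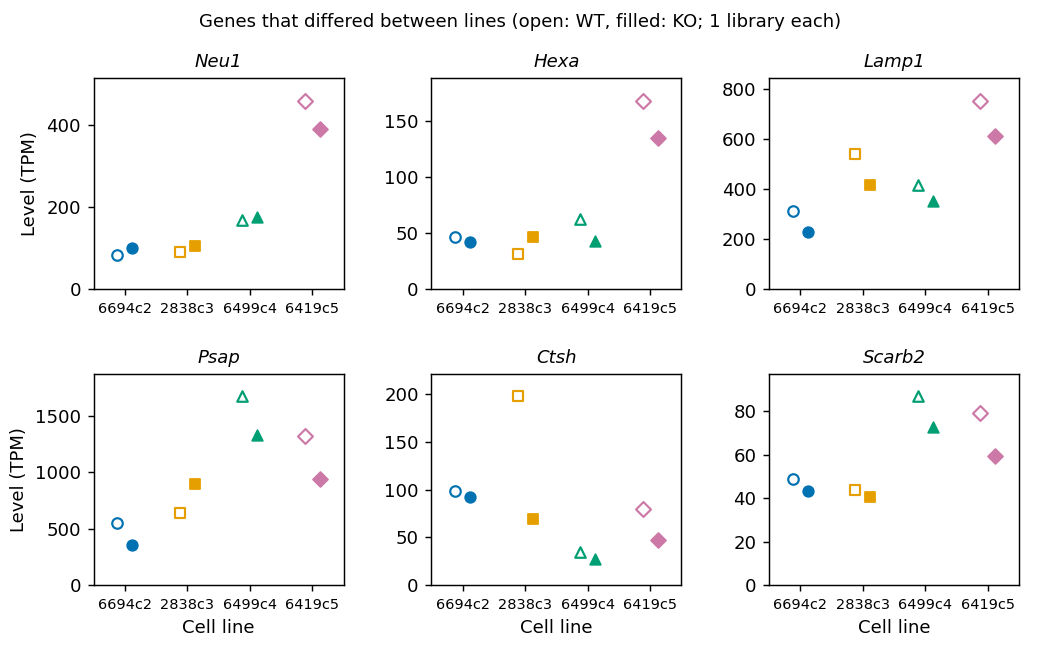
Levels (TPM, linear axes from 0) of the 6 lysosomal genes that passed the test between lines, with the WT (open) and KO (filled) library of each line. Neu1 and Hexa were highest in both libraries of 6419c5, at 459 and 389 TPM and at 168 and 135 TPM.

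These calls leaned on single lines, and the calls over all genes also changed with the lines in the fit. Without 6419c5 none of the 29 genes passed between lines, without 6499c4 2 did, without 6694c2 3 did and without 2838c3 14 did. Without both 6694c2 and 6419c5, whose KO libraries held the unnamed RNA, 1 gene passed. Over all genes 2190 passed in the full fit. There were 731 without 6419c5, 786 without 6499c4, 1446 without 6694c2, 3845 without 2838c3 and 960 without both 6694c2 and 6419c5. Fewer libraries enter each of these smaller fits.

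The pairs of libraries were then compared by genotype, for an effect of C1galt1c1 loss. None of the 29 lysosomal genes passed with limma after Benjamini-Hochberg adjustment, with the cell line as a block (0 of 29, and 0% of all 12900 genes), and none had an unadjusted limma p under 0.05 (0 of 29, against 4.95% of all genes). The KO and WT ranges of TPM as deposited, without scaling, overlapped for all 29 genes. With the same unscaled values 1.34% of all genes had every KO library below every WT library and 0.147% had every one above. The median log2 difference of the 29 genes was -0.02, against -0.01 for all genes, with 12 above 0 and 17 below. The 29 estimates had standard errors of 0.13 (Lamp1) to 0.31 (Lamp2), and the 95% intervals of 28 of them lay within 1 log2 unit of 0, Ctsh being the exception at -1.10 to 0.09. Differences smaller than these intervals were not detectable with 4 lines.

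Scaling mattered for direction. With TPM as deposited the median of all genes was -0.15 and that of the 29 genes -0.18, with 24 of the 29 below 0 and 5 at an unadjusted limma p under 0.05, all lower: Gusb, Lamp1, Asah1, Man2b1 and Ctsh. With unnamed and small RNA left out 2 had an unadjusted p under 0.05, Gusb and Asah1, and with quantile normalization none had. Over all genes, unadjusted p under 0.05 fell to higher and lower calls as 292 and 347 with median-ratio scaling (54.3% lower), as 111 and 1026 with TPM as deposited (90.2% lower), as 155 and 589 with that RNA left out (79.2% lower) and as 322 and 333 with quantile normalization (50.8% lower). No adjusted p of the 29 genes came under 0.05 in any of the 14 alternatives.

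**Figure D3:**
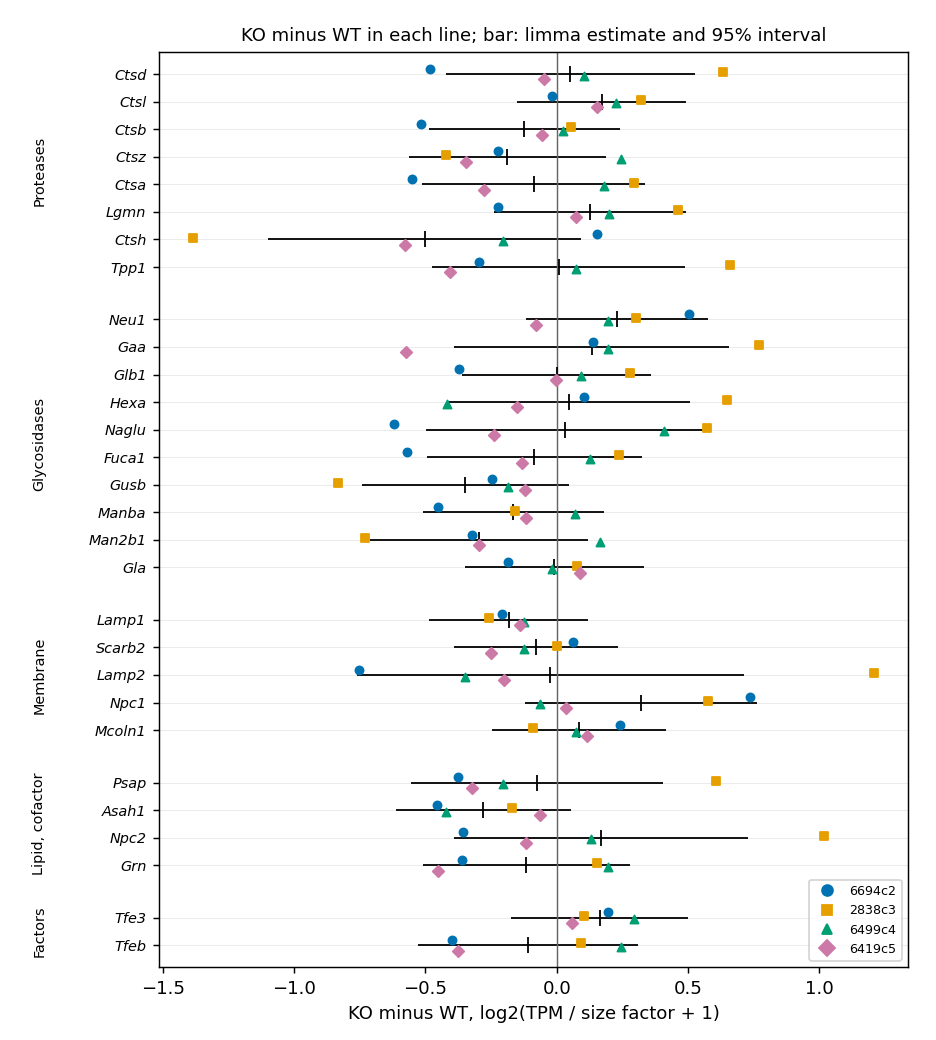
KO minus WT on the log2 scale of scaled TPM for the 29 lysosomal genes, with the 4 lines as coloured symbols and the limma estimate with its 95% interval as a black tick and bar. All 29 intervals include 0, and the points of line 2838c3 lie farthest out, from -1.38 (Ctsh) to 1.21 (Lamp2).

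Among the proteases 4 of 8 estimates lay above 0 and 4 below. Ctsh had the largest difference of the 29 genes, -0.50 with an SE of 0.25 (unadjusted limma p of 0.0859, adjusted p = 0.937). It was at -1.38 in 2838c3, -0.58 in 6419c5 and -0.20 in 6499c4, but at 0.15 in 6694c2. Without 6694c2, the only line above WT, the estimate was -0.72 with an unadjusted limma p of 0.0280. Leaving out that line had to lower the estimate, so this is no further support. The adjusted limma p of Ctsh was 0.561 or more in every alternative. Ctsl stood at 0.17 (SE 0.14) and was above WT in 3 lines. Ctsd stood at 0.05 (SE 0.20), with 0.63 in 2838c3 and -0.48 in 6694c2, and its sign turned with TPM as deposited. Ctsz, Ctsb and Ctsa, the last a carboxypeptidase that also protects Neu1 and Glb1, had estimates of -0.19, -0.12 and -0.09. Lgmn, an asparaginyl endopeptidase, stood at 0.13 and Tpp1, a tripeptidyl peptidase, at 0.01.

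Among the glycosidases 4 of 10 estimates lay above 0. Gusb was below WT in all 4 lines, with 26.8 and 19.0 TPM in 6694c2, 52.2 and 26.7 TPM in 2838c3, 53.8 and 43.1 TPM in 6499c4, and 64.2 and 52.7 TPM in 6419c5 (WT then KO). Its log2 difference was -0.35 with an SE of 0.17 (95% interval -0.74 to 0.05, unadjusted limma p of 0.0756, adjusted p = 0.937), the smallest unadjusted p of the 29 genes. Line 2838c3 contributed -0.83 and the others -0.25 to -0.12. Man2b1, the lysosomal alpha-mannosidase, had 29.3 and 19.7 TPM in 6694c2, 44.8 and 24.6 TPM in 2838c3, 49.2 and 50.6 TPM in 6499c4, and 50.7 and 36.7 TPM in 6419c5. Its difference was -0.30 with an SE of 0.17, below WT in 3 lines and at 0.17 in 6499c4. Neu1 stood at 0.23 (SE 0.15), above WT in 3 lines and at -0.08 in 6419c5, where its level was highest. Gaa, the acid alpha-glucosidase that degrades glycogen, had 123 and 115 TPM in 6694c2, 68.5 and 109 TPM in 2838c3, 159 and 167 TPM in 6499c4, and 192 and 115 TPM in 6419c5. Its differences ran from -0.57 in 6419c5 to 0.77 in 2838c3, and the estimate was 0.13 (SE 0.22). Glb1, Gla, Naglu, Hexa, Fuca1 and Manba, which cleave galactose, N-acetylglucosamine or N-acetylgalactosamine, fucose and mannose residues, had estimates between -0.17 and 0.05.

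Among the membrane proteins Lamp1 was below WT in all 4 lines, at log2 differences of -0.21 in 6694c2, -0.26 in 2838c3, -0.13 in 6499c4 and -0.14 in 6419c5. This is a small and even difference, with an estimate of -0.18, an SE of 0.13 and an limma adjusted p of 0.937. Lamp2, its paralogue, which also acts as a receptor in chaperone-mediated autophagy, was uneven. It had 44.8 and 22.2 TPM in 6694c2, 33.5 and 72.9 TPM in 2838c3, 54.7 and 39.1 TPM in 6499c4, and 63.1 and 49.0 TPM in 6419c5. On the log2 scale it was at 1.21 in 2838c3 and at -0.75, -0.35 and -0.20 in 6694c2, 6499c4 and 6419c5. Without 2838c3, the only line above WT, its estimate moved from -0.02 to -0.44 (unadjusted limma p of 0.0333, adjusted p = 0.649). Leaving out that line had to lower it. The ratio of Lamp1 to Lamp2 within a library, which division by a size factor does not change, went from 16.2 in WT to 5.75 in KO in 2838c3, but from 6.98 to 10.4 in 6694c2, from 7.65 to 8.98 in 6499c4 and from 11.96 to 12.5 in 6419c5.

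Npc1, which exports cholesterol from the lysosome, had 27.6 and 39.6 TPM in 6694c2, 18.2 and 25.6 TPM in 2838c3, 18.7 and 16.3 TPM in 6499c4, and 19.0 and 17.5 TPM in 6419c5. Its log2 differences were 0.74 and 0.58 in the first 2 of these lines and -0.06 and 0.04 in the others, with an estimate of 0.32 (SE 0.19, unadjusted limma p of 0.128). Scarb2 and the calcium channel Mcoln1 stood at -0.08 and 0.08, Mcoln1 turning to -0.07 with TPM as deposited.

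In the group of lipid hydrolysis and cofactors 3 of 4 estimates lay below 0. Asah1, acid ceramidase, had 368 and 228 TPM in 6694c2, 467 and 383 TPM in 2838c3, 350 and 239 TPM in 6499c4, and 419 and 359 TPM in 6419c5. It was below WT in all 4 lines, at -0.46 in 6694c2, -0.17 in 2838c3, -0.42 in 6499c4 and -0.06 in 6419c5 on the log2 scale, with an estimate of -0.28 and an SE of 0.14 (unadjusted limma p of 0.0868, adjusted p = 0.937). Npc2, the soluble partner of Npc1 in cholesterol export, was at 1.02 in 2838c3, with 209 and 393 TPM, and between -0.36 and 0.13 in the other lines. Psap and Grn, the progranulin gene, had estimates of -0.07 and -0.12.

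Both regulators were low, and Tfe3 varied less than Tfeb, with a highest over lowest library of 1.29 against 3.26. Tfe3 had 13.1 and 12.9 TPM in 6694c2, 13.8 and 13.8 TPM in 2838c3, 12.8 and 14.6 TPM in 6499c4, and 12.2 and 11.4 TPM in 6419c5. After scaling it was above WT in all 4 lines, by 0.06 to 0.30, with an estimate of 0.16 (SE 0.14, unadjusted limma p of 0.288). As deposited it was above WT in 6499c4 alone. Tfeb had 10.7 and 6.68 TPM in 6694c2, 14.2 and 14.0 TPM in 2838c3, 9.47 and 10.5 TPM in 6499c4, and 21.8 and 14.8 TPM in 6419c5. It was at -0.40 and -0.37 in 6694c2 and 6419c5 and at 0.09 and 0.25 in 2838c3 and 6499c4. The activity of both factors is set largely by phosphorylation and entry into the nucleus, which mRNA levels do not measure.

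Of the 29 genes 3 (Gusb, Lamp1 and Asah1) were below WT in all 4 lines, where 7.04% of all genes were, and 1 (Tfe3) was above WT in all 4 lines, where 6.33% were. Any gene with 1 direction in all 4 lines gets p = 0.125 in an exact two-sided paired sign-flip test over the lines, whatever its values. No smaller p is possible with 16 sign patterns, so this test says nothing more about these 4 genes. With TPM as deposited 8 of the 29 were below WT in all 4 lines (18.5% of all genes) and 0 above (1.88% of all genes).

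The other 25 of the 29 did not keep 1 direction, as is the case for most genes tested. The direction of the 29 genes as a group differed by line. In 6694c2 21 of 29 were below WT and 8 above (52.2% and 47.6% of all genes), with a median of -0.30. In 6419c5 23 were below and 6 above (51.2% and 48.7% of all genes), with a median of -0.13. In 2838c3 8 were below and 21 above (48.8% and 51.2% of all genes), with a median of 0.24. In 6499c4 10 were below and 19 above (49.0% and 50.8% of all genes), with a median of 0.09. The medians of all genes in the same order of lines were -0.02, -0.01, 0.02 and 0.01. Line-specific effects of the knockout and variation of a culture or library cannot be told apart here.

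**Figure D4:**
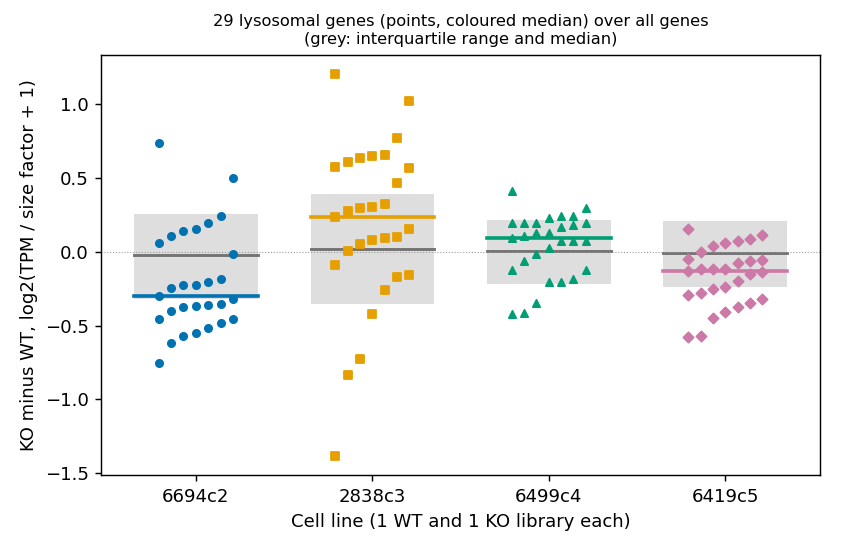
KO minus WT on the log2 scale of scaled TPM in each line for the 29 lysosomal genes (points), with their median as a coloured line and the interquartile range and median of all 12900 genes in grey. The medians of the 29 genes are -0.30 in 6694c2, 0.24 in 2838c3, 0.09 in 6499c4 and -0.13 in 6419c5.

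The direction in 3 of the lines was the same under 4 scalings: 20 to 26 genes were below WT in 6694c2 and 23 to 29 in 6419c5, and 16 to 21 were above WT in 2838c3. Of all genes, 49.5% to 71.1% were below WT in 6694c2, 50.8% to 68.6% in 6419c5 and 48.6% to 56.1% in 2838c3. The counts of 26, 29 and 16 came with TPM as deposited, the scaling with the largest of these shares. In 6499c4 the direction was not the same. There 13 genes were above WT with TPM as deposited and also with unnamed and small RNA left out, scalings under which 63.5% and 63.3% of all genes were below WT in that line. The 2 lines with lower values are those whose KO libraries had 12.5% and 9.69% of TPM in identifiers with no name, and the part of this RNA in the result was not tested. Relative to the median of all genes under the same scaling, the median of the 29 genes stood between -0.32 and -0.27 in 6694c2, between -0.19 and -0.12 in 6419c5, between 0.21 and 0.24 in 2838c3 and between 0.04 and 0.09 in 6499c4. A gene below WT in 6694c2 and 6419c5 and above WT in 2838c3 and 6499c4 was the case for 10 of the 29 (Ctsa, Ctsb, Ctsd, Tpp1, Glb1, Naglu, Fuca1, Npc2, Grn and Tfeb), where 11.1% of all genes had this pattern. The pattern was picked after its values were seen. With TPM as deposited 8 of the 29 had it (11.3% of all genes), and with quantile normalization 8 (10.8%). With unnamed and small RNA left out 5 had it (8.29%).

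Within a line few genes moved by 2-fold. At least 2-fold above WT were 2 genes in 2838c3, Lamp2 and Npc2 (6.02% of all genes), and at least 2-fold below was Ctsh in the same line (6.21% of all genes). In that line some markers also differed between the WT and the KO library, in both directions. Higher in KO were Epcam (1.35 and 25.1 TPM), Cldn4 (0.623 and 8.88 TPM) and the fibroblast marker Col1a1 (1.50 and 5.62 TPM). Lower in KO were Cdh1 (1249 and 788 TPM), Krt8 (5578 and 4755 TPM) and the fibroblast marker Pdpn (0.356 and 0.172 TPM). Krt7, Krt18, Krt19 and Sox9 were higher in KO by less than 2-fold. The remaining fibroblast markers were also higher but under 1 TPM. The part of the markers in these differences was not tested. None of the 29 differed by 2-fold in the other 3 lines. The shares of all genes at least 2-fold above and below WT there were 2.72% and 3.64% in 6694c2, 1.14% and 1.30% in 6499c4, and 1.91% and 1.50% in 6419c5. The 10 genes with CACGTG in their promoter window had a median log2 difference of -0.22 in 6694c2, 0.31 in 2838c3, 0.14 in 6499c4 and -0.03 in 6419c5. For the 15 with a window and without the motif it was -0.32, 0.15, 0.13 and -0.20 in the same order.

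Genes of the organelle outside the 29 were taken in 7 lists. Of 37 further hydrolases and related genes, most of them for soluble enzymes, 35 were tested and 0 passed with limma after adjustment. Their median was -0.10, and by line it was -0.28 in 6694c2, 0.18 in 2838c3, 0.01 in 6499c4 and -0.18 in 6419c5. At an unadjusted limma p under 0.05 there were 3, all lower (2.69% of all genes): Lipa, the acid lipase, with an estimate of -0.51 (SE 0.14, unadjusted limma p of 0.00964, adjusted p = 0.937), the cathepsin Ctsf at -0.54 (SE 0.21) and the acid phosphatase Acp5 at -0.41 (SE 0.17), the last chosen after its values were seen. Lipa had 149 and 80.8 TPM in 6694c2, 136 and 75.9 TPM in 2838c3, 121 and 83.0 TPM in 6499c4, and 210.5 and 159.7 TPM in 6419c5 (WT then KO), below WT in each line.

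Of 28 further lysosomal membrane proteins 24 were tested, with 0 after adjustment and a median of -0.03. At an unadjusted limma p under 0.05 there were 1 lower and 0 higher (2.69% and 2.26% of all genes). By line the median was -0.01 in 6694c2, -0.02 in 2838c3, 0.03 in 6499c4 and -0.05 in 6419c5. The lower one was the transporter Mfsd1 at -0.59 (SE 0.24), which held 16.8 and 4.84 TPM in 2838c3 and at least 78.9 TPM in the other lines. The two-pore channel Tpcn1 stood at -0.30 (SE 0.15). Of 22 subunits of the V-ATPase, the pump that acidifies the lysosome, 19 were tested, with 0 at either threshold (4.95% of all genes unadjusted). Their median was 0.09, or 0.05, 0.16, -0.05 and 0.11 by line in the same order. Atp6v1g1 and Atp6v0b stood at 0.32 (SE 0.14) and 0.19 (SE 0.13).

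Of 24 genes for mannose 6-phosphate tagging and sorting 23 were tested, with 0 after adjustment. At an unadjusted limma p under 0.05 there was 1 lower (2.69% of all genes). This was Gnptab, the catalytic part of the enzyme that starts the tag, at -0.42 (SE 0.14, unadjusted limma p of 0.0223, adjusted p = 0.937). It had 21.1 and 14.9 TPM in 6694c2, 28.1 and 15.9 TPM in 2838c3, 52.7 and 33.7 TPM in 6499c4, and 52.7 and 39.0 TPM in 6419c5, below WT in each line. The sorting receptor Sort1 stood at -0.41 (SE 0.18). The list had a median of -0.07, or -0.06, -0.01, 0.04 and -0.08 by line. Gnptab also differed between lines (limma, adjusted p = 0.0160).

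Of 30 genes that place mTORC1 and Tfeb under lysosomal control 27 were tested, with 0 after adjustment and 1 higher at an unadjusted limma p under 0.05 (2.26% of all genes), Castor1, an arginine sensor upstream of mTORC1, at 0.65 (SE 0.21). Castor1 was above WT by 0.56 in 6694c2, 1.22 in 2838c3, 0.74 in 6499c4 and 0.07 in 6419c5, though its TPM as deposited was slightly lower in the KO library of 6419c5 (5.43 and 5.13 TPM). By line the median of the list was 0.06, 0.15, 0.06 and -0.09. Nprl2, which restrains mTORC1, stood at 0.23 (SE 0.14). Of 41 autophagy genes 40 were tested, with 0 at either threshold (4.95% of all genes unadjusted). Their median was 0.07, or -0.04, 0.22, 0.05 and -0.16 by line. Sqstm1, the autophagy receptor p62, had 402 and 1763 TPM in 6694c2, 292 and 303 TPM in 2838c3, 439 and 486 TPM in 6499c4, and 607 and 775 TPM in 6419c5, so its estimate of 0.83 (SE 0.37) rested mostly on 6694c2. Vps33a stood at -0.27 (SE 0.14). Of 7 cysteine protease inhibitors 3 were tested, with Cst3, cystatin C, at -0.23 (SE 0.17) and Cstb at 0.21 (SE 0.13).

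Some of the genes overlap their neighbours. In GENCODE vM39 on GRCm39, 18 of the 29 have exons that overlap those of another gene, for example Gla with Hnrnph2 and Rpl36a on the other strand and Ctsd with Gm49369 on the same strand. The design text calls the libraries stranded and the kit in the labels' protocols is not named as a directional one, so reads of such pairs may not have been told apart.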

How the data were processed

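Polyadenylated RNA was captured on oligo(dT) beads and sequenced as paired ends, per the labels' protocols. The deposited values are TPM, made by the authors and given for 49315 identifiers in 8 libraries. The submitters' processing notes name cutadapt 5.1, STAR 2.7.11b, featureCounts 2.1.1, DESeq2 2.11.40.8 and the mm39 build, with no role, and how the TPM were made was not given in the sources used here. TPM keep no depth, so no counting error can be given. GENCODE vM39 on GRCm39 named 45505 identifiers.

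The filter asked for 1 TPM or more in 4 or more libraries, which 12900 genes met. Libraries were divided by median-ratio size factors, and log2 of this value plus 1 was the input to limma (version 3.58.1, R version 4.3.3), in a model of genotype plus line with a variance trend. This log2 scale understates the change of low genes. Tests are two-sided, with Benjamini-Hochberg adjustment and a threshold of 0.05. The line is a block because the WT and KO libraries of a line share their origin. Their deviations from the genotype means correlated in every line (r across genes was 0.66 in 6694c2, 0.42 in 2838c3, 0.79 in 6499c4 and 0.75 in 6419c5). The labels do not say that cultures were repeated. The KO p-values therefore rest on the spread of the KO minus WT differences over the 4 lines, moderated over genes. In the tests between lines the same spread is used, and the WT and KO libraries of a line stand in for replicates.

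The step was tested on simulated data for KO against WT with 12761 genes, which recovered 90% of the genes given a log2 shift of 1 and 96% of those given 2, with 8 false calls. The noise of the simulation was set by hand (an SD of 0.25 on the log2 scale, equal for all genes) and not taken from these libraries. The shares recovered therefore do not give the power of the test on these libraries. There C1galt1c1, with a log2 difference of -1.27, did not pass after adjustment (limma, adjusted p = 0.427). The alternatives were 3 other scalings, a pseudocount of 0.1, no filter or 5 TPM, no trend, robust variance, no block, each line left out, and 2 lines left out together. The genes and lists were chosen with earlier results of these data known. Values in every library are given for the 2 genes of highest mean level per role, the 8 of smallest KO p, the 6 of smallest line p and both factors, with a few others named after their values were seen. Of each other list the 2 genes of smallest p are named. Promoter sequences are from RefSeq (GRCm38.p6). Tables and plots were made in Python 3.11.15 (matplotlib 3.10.9, numpy 2.4.6, pandas 2.3.3).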

Additional observations from a re-analysis of the deposited data

Results flagged for a closer look

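In groups of 4 libraries a value can stand far from the other 3. Of 58 such groups (29 genes in WT and in KO), 5 held a library whose gap to its neighbour took a larger part of the range of the group than Dixon's 95% critical value, and chance alone gives about 1 in 20 groups. Among the WT libraries these were Ctsa in 6419c5, at 218 TPM, and Npc1 in 6694c2, at 27.6 TPM. Among the KO libraries they were Hexa in 6419c5, at 135 TPM, Gaa in 6499c4, at 167 TPM, and Manba in 2838c3, at 43.6 TPM. Each was the highest of its group. Whether the KO effect differs between lines was not tested, because each line has 1 library per genotype.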

How the results depend on the processing

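No lysosomal gene and no other gene passed the KO test after adjustment in any of the 14 alternatives, and the median of the 29 genes moved by less than its SD over lines (0.24), from -0.18 with TPM as deposited to 0.18 without 6694c2 and 6419c5. The number of the 29 genes at an unadjusted limma p under 0.05, 0 in the report, was 5 with TPM as deposited, 2 with unnamed and small RNA left out, and 0 to 1 with a line left out. The number that differed between lines, 6 in the report, was 1 with no filter, 1 without 6694c2 and 6419c5, and 3, 14, 2 and 0 without 6694c2, 2838c3, 6499c4 and 6419c5. Over all genes 2190 of 12900 differed between lines, and 1669 of 27103 did with no filter. There were 960 without those 2 lines and 1446, 3845, 786 and 731 without each line in the same order, where fewer libraries enter the fit. The fit without the replicate block called 0 genes for KO against WT, as the paired fit did, and changed no other call. Of the 29 KO estimates 17 changed sign in at least 1 alternative. The depth is unknown, so its limits cannot be given.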
